A study of Mus musculus with 16 samples.

Results

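The genes described here are 42 genes of the cell cycle, 20 that act in DNA replication and 22 that act in mitosis, followed over poly(A) RNA-seq libraries of mouse bone cells. They were taken as the rows of 42 listed symbols in the deposited table of normalized counts, and all 42 listed symbols were found among its 20056 gene symbols. The 16 libraries fall into 4 groups of 4: osteoblast cells (OBs) and mesenchymal stem cells (MSCs), each sorted from miR-9-1-deficient mice and from wild-type mice. MSCs are stromal progenitors that can give rise to osteoblasts, the cells that lay down bone matrix. The deficient mice carry a CRISPR/Cas9 disruption of the gene of the microRNA miR-9-1, and no treatment is given for any group. Each title carries a number that 1 OB and 1 MSC library share. Each number is called a mouse here, E, F, G and H for the miR-9-1-deficient and A, B, C and D for the wild-type ones, although the labels do not say that libraries with 1 number come from 1 animal. Sort gate, sex and age are not given in the labels. The OB libraries held 15543693 to 18962771 gene-assigned reads and the MSC libraries 10148197 to 14246986. All 42 genes passed the filter on low values in every comparison. The lowest of them was Ttk, with 9 reads in 1 miR-9-1-deficient MSC library.

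DNA is copied once per cell cycle. The MCM helicase is loaded onto origins in G1 by Cdc6 and Cdt1 and is switched on in S phase by Cdc45, the GINS complex and Mcm10. Polymerases, the sliding clamp Pcna and the flap nuclease Fen1 then work at the forks, on nucleotides supplied by ribonucleotide reductase (Rrm1, Rrm2) and thymidylate synthase (Tyms). The transcripts of this set rise at the G1/S transition under E2F factors. Mitosis genes are switched on later, in G2, and many carry a cell cycle genes homology region (CHR) and CCAAT boxes, read by the MuvB core with B-Myb and Foxm1. In a tissue their summed level is widely used as a readout of how many cells are dividing.

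Because the 2 sets are known for different promoter elements, the promoters of the members were examined first. RefSeq promoters, from 250 bases before the start to 50 after it on build GRCm38.p6, were at hand for 34 of the 42 genes (Mcm4, Gins1, Gins2, Pole, Ccna2, Kif20a, Aurkb and Tpx2 had none in the table). Both strands were searched for E2F-type sites (TTTCCCGC, TTTGGCGC, TTTCGCGC or TTTGCCGC), the CHR (TTTGAA), its variant TTCGAA and CCAAT. The 6 printed below are, from each set, the 3 with the smallest p between genotypes in MSCs, and the capitals mark every match to these motifs on either strand. They lie at Top2a at chr11:99024140-99024439 on the minus strand, Cdk1 at chr10:69352863-69353162 on the minus strand, Kif11 at chr19:37376132-37376431 on the plus strand, Mcm2 at chr6:88898731-88899030 on the minus strand, Cdt1 at chr8:122567765-122568064 on the plus strand and Cdc6 at chr11:98907901-98908200 on the plus strand.
Top2a: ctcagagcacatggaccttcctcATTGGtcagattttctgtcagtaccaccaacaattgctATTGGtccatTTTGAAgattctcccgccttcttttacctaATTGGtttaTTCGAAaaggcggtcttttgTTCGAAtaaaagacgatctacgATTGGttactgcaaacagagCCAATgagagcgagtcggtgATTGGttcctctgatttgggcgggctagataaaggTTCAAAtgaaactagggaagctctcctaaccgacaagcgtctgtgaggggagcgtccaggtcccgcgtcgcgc
Cdk1: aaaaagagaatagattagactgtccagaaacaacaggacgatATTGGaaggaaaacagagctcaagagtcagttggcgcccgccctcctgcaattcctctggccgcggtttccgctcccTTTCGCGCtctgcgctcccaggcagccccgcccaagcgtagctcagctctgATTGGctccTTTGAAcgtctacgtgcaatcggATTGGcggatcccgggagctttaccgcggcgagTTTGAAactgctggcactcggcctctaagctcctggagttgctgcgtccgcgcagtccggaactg
Kif11: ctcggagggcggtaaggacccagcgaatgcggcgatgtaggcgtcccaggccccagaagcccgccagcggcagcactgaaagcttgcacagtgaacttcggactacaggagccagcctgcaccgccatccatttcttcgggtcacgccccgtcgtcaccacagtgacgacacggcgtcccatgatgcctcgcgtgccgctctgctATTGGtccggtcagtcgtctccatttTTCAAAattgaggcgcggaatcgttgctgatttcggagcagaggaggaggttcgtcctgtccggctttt
Mcm2: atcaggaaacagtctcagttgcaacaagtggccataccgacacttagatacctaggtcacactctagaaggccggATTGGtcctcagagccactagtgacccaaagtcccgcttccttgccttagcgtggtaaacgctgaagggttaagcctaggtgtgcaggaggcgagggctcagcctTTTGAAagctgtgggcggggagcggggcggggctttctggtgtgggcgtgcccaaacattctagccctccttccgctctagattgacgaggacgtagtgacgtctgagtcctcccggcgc
Cdt1: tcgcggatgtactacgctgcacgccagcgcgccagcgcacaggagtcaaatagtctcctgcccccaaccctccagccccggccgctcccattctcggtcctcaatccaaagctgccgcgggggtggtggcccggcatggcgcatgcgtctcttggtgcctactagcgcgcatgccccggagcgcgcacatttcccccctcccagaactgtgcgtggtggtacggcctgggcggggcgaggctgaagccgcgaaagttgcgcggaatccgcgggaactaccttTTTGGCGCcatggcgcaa
Cdc6: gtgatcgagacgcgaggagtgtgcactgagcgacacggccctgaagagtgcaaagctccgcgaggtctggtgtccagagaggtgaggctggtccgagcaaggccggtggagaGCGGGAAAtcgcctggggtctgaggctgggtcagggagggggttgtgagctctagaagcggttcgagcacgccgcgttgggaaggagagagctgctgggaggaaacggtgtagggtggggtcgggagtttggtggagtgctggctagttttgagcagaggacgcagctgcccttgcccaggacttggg

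The motifs divided the sets. A CHR was present in 13 of 18 mitosis promoters (72.2%) and in 3 of 16 replication promoters (18.8%). It was present for 20.2% of all 27025 genes of the promoter table and for 14.3% of the 11023 of these tested in MSCs. A gene with several promoters counted if any of them held the motif. An E2F-type site was present in 1 of 18 mitosis promoters, that of Cdk1, and in 7 of 16 replication promoters (43.8%): Mcm3, Mcm5, Mcm6, Mcm7, Cdc6, Cdt1 and Pola1. Over all genes of the table the count was 704 of 27025, and over those tested in MSCs 488 of 11023. CCAAT was common in both sets, in 16 of 18 mitosis and 12 of 16 replication promoters, against 41.1% of all genes of the table. The printed promoters of Top2a, Cdk1 and Kif11 each hold a CHR and at least 1 CCAAT, read as ATTGG on the other strand. The Top2a promoter holds 6 CCAAT matches, 2 CHR matches and 2 places with the variant, whose letters read the same on both strands. Cdt1 and Cdc6 hold an E2F-type site and neither CHR nor CCAAT. The Cdc6 window lies wholly inside the gene, which begins at 98907709, and so surrounds a start within it. Mcm2 holds a CCAAT and no E2F-type match, as most of its set, and is among the 3 of 16 replication promoters with a CHR. A match is a run of letters and not a measured binding site.

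Before the levels are compared, 3 properties of the libraries have to be stated. Every OB library held both Xist, the transcript of the inactive X chromosome, at 3720 to 8053 normalized counts, and the Y-linked Ddx3y, at 649 to 1939. In the MSC libraries the 2 genes excluded each other: Xist was at 11937 to 14158 in 5 libraries (G and H of the miR-9-1-deficient mice, B, C and D of the wild-type mice) and at 291 to 392.1 in the other 3 (E and F, and A), where Ddx3y reached 1848 to 3355. Whether the OB libraries hold RNA of more than 1 mouse each was not tested. Mir9-1 itself had 0 reads in all 8 MSC libraries, which allows up to 3.52 to 4.51 normalized counts per library for counting error alone, and 0 to 3 reads in miR-9-1-deficient OBs, against 0 to 16 in wild-type OBs, so that these libraries do not check the genotype. Osteoblast markers were lower in the OB libraries than in the MSC libraries: of 12 tested, 0 were higher and 9 lower between wild-type OBs and wild-type MSCs. The share of all genes called lower between OBs and MSCs is not given here. Counts of lower genes in this comparison, here and below, are therefore descriptions without a background.

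Per kilobase of exon, Pcna, the sliding clamp of the replication fork, had the highest level of the 42 genes in all 4 groups, at 1306 ± 130.4 normalized counts per kb in miR-9-1-deficient OBs, 1366 ± 53.4 in wild-type OBs, 738 ± 63.7 in miR-9-1-deficient MSCs and 704 ± 58.3 in wild-type MSCs (SD, n = 4 each). Ttk, a kinase of the spindle checkpoint, had the lowest, at 35.1 ± 7.95, 32.4 ± 7.13, 6.07 ± 4.07 and 11.1 ± 4.06 per kb in the same order of groups. Mki67, which coats mitotic chromosomes and encodes the Ki-67 antigen, stood next to Pcna in both OB groups and in wild-type MSCs. In miR-9-1-deficient MSCs, Mcm6, Mcm7 and Mcm4 stood between them, but Mki67 there was at 181 ± 71.5 per kb and Mcm6 at 229 ± 35.01, so that these neighbours do not differ beyond their spread. Fen1 held the third place in both OB groups, at 1033 ± 146 and 1065 ± 28.2 per kb, and the ninth in both MSC groups, at 140.4 ± 6.43 and 160.1 ± 13.3 (miR-9-1-deficient before wild-type in each pair). The lengths are unions of all annotated exons, so that ranks between genes depend on the annotation.

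The 42 genes lie on 17 chromosomes, 8 of them on chromosome 2. The closest pair of neighbours is Cdc6 (chromosome 11, 98907709 to 98923942) and Top2a (98992947 to 99024199), 69.0 kb apart on GRCm38, 1 gene from each set. Both are described below. In MSCs the log2 fold change was -0.47 ± 0.27 for Cdc6, which did not pass, and -0.93 ± 0.18 for Top2a, which did, and the difference between them was not tested.

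OB libraries were compared with MSC libraries within each genotype. All 42 genes were higher in wild-type OBs than in wild-type MSCs (limma on log2(normalized count + 1), Benjamini-Hochberg adjusted p under 0.05 over 14696 genes; 34.4% of all genes were called higher), with a median log2 fold change of 2.01 in the replication set and 1.91 in the mitosis set, against 0.01 over all genes. All 42 were also higher in miR-9-1-deficient OBs than in miR-9-1-deficient MSCs, where 29.0% of 14692 genes were called higher. There the medians were 1.93 in the replication set and 2.48 in the mitosis set, against -0.02 over all genes. In neither genotype did any of the 42 genes overlap between OB and MSC libraries, and groups failed to overlap in this direction for 32.6% of all genes in wild-type and 28.0% in miR-9-1-deficient mice. In bulk RNA, more dividing cells and more transcript per dividing cell cannot be told apart.

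Fen1, which removes RNA primers' flaps from the lagging strand, had the largest replication change in both genotypes. Fen1 had 2505, 2569, 2571 and 2671 normalized counts in the wild-type OB libraries of mice A to D, against 411, 369, 352 and 419 in the MSC libraries with the same letters. The groups stand far apart, with a log2 fold change of 2.73 ± 0.08 (6.65-fold, adjusted p = 4.5e-09, limma). Fen1 had 2038, 2508, 2569.5 and 2893 normalized counts in the miR-9-1-deficient OB libraries of mice E to H, against 338, 327, 332 and 362 in the MSC libraries with the same letters (2.87 ± 0.12, 7.29-fold, adjusted p = 1.3e-06, limma). Mcm5, an MCM helicase subunit, and Pole, the catalytic subunit of the leading-strand polymerase, followed in wild-type mice. Mcm5 had 2823, 3171, 3032 and 2777 normalized counts in the wild-type OB libraries of mice A to D, against 563, 607, 630.5 and 403 in the MSC libraries with the same letters (2.44 ± 0.13). Pole had 1193, 1160.2, 1205 and 1153 normalized counts in the wild-type OB libraries of mice A to D, against 185, 164, 263 and 279.5 in the MSC libraries with the same letters (2.43 ± 0.16). Both genes were tight within the OB group and spread more within the MSC group. In miR-9-1-deficient mice Mcm2 and Tyms followed Fen1. Mcm2 had 2223, 2498, 2928 and 3065 normalized counts in the miR-9-1-deficient OB libraries of mice E to H, against 374, 449.8, 374 and 527 in the MSC libraries with the same letters (2.63 ± 0.15). Tyms had 464, 561, 538 and 614 normalized counts in the miR-9-1-deficient OB libraries of mice E to H, against 39.9, 137, 90.2 and 114 in the MSC libraries with the same letters (2.63 ± 0.34). Tyms, which makes thymidylate, had its lowest value in the MSC library of mouse E, below every other library of the 16. Pcna changed least of the 42 genes in both genotypes, by 0.82 ± 0.11 in miR-9-1-deficient and 0.96 ± 0.07 in wild-type mice, beside its high level in MSCs.

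In the mitosis set, Bub1, a spindle checkpoint kinase, led in wild-type mice. Bub1 had 544, 615, 524 and 565 normalized counts in the wild-type OB libraries of mice A to D, against 83.3, 137, 119 and 79.6 in the MSC libraries with the same letters (2.45 ± 0.19, 5.45-fold, adjusted p = 8.14e-07, limma). Cenpf, a kinetochore protein, and Aurkb, the kinase of the chromosomal passenger complex, came next with log2 fold changes of 2.40 ± 0.15 and 2.38 ± 0.15. Cenpf had 1546, 1589, 1675 and 1620.3 normalized counts in the wild-type OB libraries of mice A to D, against 214, 321, 338 and 368 in the MSC libraries with the same letters. Aurkb had 732, 747, 758 and 879.5 normalized counts in the wild-type OB libraries of mice A to D, against 167, 126, 182 and 126 in the MSC libraries with the same letters. For these genes too the lowest OB library stood above every MSC library. In miR-9-1-deficient mice Cdk1, the kinase that drives entry into mitosis, led. Cdk1 had 693, 789, 979 and 899 normalized counts in the miR-9-1-deficient OB libraries of mice E to H, against 75.1, 111, 120.3 and 152 in the MSC libraries with the same letters (2.90 ± 0.22, 7.44-fold, adjusted p = 1.38e-05, limma). Bub1 had 465, 403, 527 and 598 normalized counts in the miR-9-1-deficient OB libraries of mice E to H, against 65.7, 49.0, 91.5 and 74.5 in the MSC libraries with the same letters (2.83 ± 0.23). Ube2c had 555, 730.1, 860.4 and 856 normalized counts in the miR-9-1-deficient OB libraries of mice E to H, against 59.9, 134, 81.0 and 229 in the MSC libraries with the same letters (2.73 ± 0.38). Ube2c, the ubiquitin-conjugating enzyme of the anaphase-promoting complex, ranged widely in the MSC libraries, with mouse H well above the other 3. Kif20a, a kinesin of cytokinesis, changed least in this set, by 1.47 ± 0.24 in miR-9-1-deficient and 1.33 ± 0.13 in wild-type mice. These comparisons share their libraries with the comparisons of genotype described next, and the difference between their medians is therefore no separate result.

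**Figure D1:**
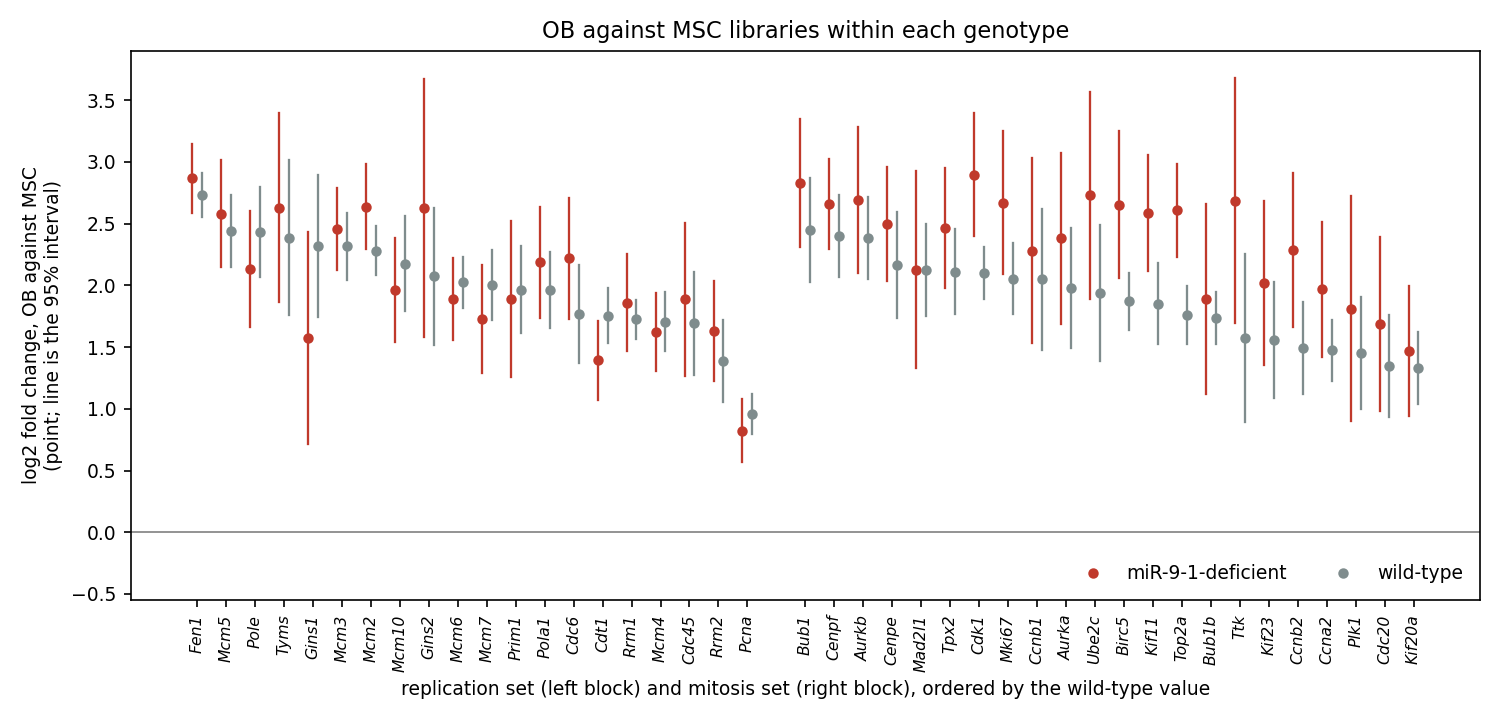
Log2 fold change of OB against MSC libraries for each of the 42 genes, in miR-9-1-deficient (red) and wild-type (grey) mice (points; lines are 95% intervals of the limma fit, 4 against 4 libraries). Every interval lies above 0, Pcna is the lowest gene in both genotypes, and in the mitosis set no red point lies below its grey one, with Mad2l1 nearly equal.

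Genes of the same processes outside the 42 moved with them. Of 48 other replication genes tested, 47 were higher and 0 lower in wild-type OBs than in wild-type MSCs (median 1.55), and in miR-9-1-deficient mice 45 were higher and 0 lower (median 1.52). Of 49 other mitosis genes, 47 were higher and 1 lower in wild-type mice (median 1.86), and in miR-9-1-deficient mice 48 were higher and 1 lower (median 2.33). The exception in both was Pttg1, securin, which holds separase inactive until anaphase, at -1.14 ± 0.12 in wild-type and -0.91 ± 0.19 in miR-9-1-deficient mice. Of 20 E2F, MYB and DREAM regulators, 15 were higher and 1 lower in wild-type mice, and in miR-9-1-deficient mice 14 were higher and 2 lower. Mybl2, which encodes B-Myb, was among those higher in both (2.75 ± 0.31 in miR-9-1-deficient and 2.45 ± 0.19 in wild-type mice), and Rbl2, which encodes the pocket protein p130 of the repressive DREAM complex, was lower in both (-0.999 ± 0.33 and -0.69 ± 0.07, in the same order). Of the CDK inhibitors tested, 4 of 7 were lower and 0 higher in wild-type mice, and 3 of 6 were lower and 0 higher in miR-9-1-deficient mice.

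Markers of blood cells differed between OBs and MSCs too, in both directions. All 18 erythroid markers were higher in OBs than in MSCs in both genotypes (median 2.12 in miR-9-1-deficient and 2.01 in wild-type mice), and so were 13 of 14 blood progenitor markers in each (median 2.09 and 1.89). Their summed level was 22852 to 30329 normalized counts over the 18 erythroid markers in miR-9-1-deficient OBs and 22276 to 30884 in wild-type OBs, against 4444 to 14815 in miR-9-1-deficient MSCs and 5114 to 9285 in wild-type MSCs. None of the 18 was at 0 in any whole group. Hba-a1 and Hba-a2 had the same log2 fold change between genotypes, 0.20 in MSCs and -0.22 in OBs. The count of 18 and the summed level may therefore hold the same reads more than once. Of 11 mature neutrophil markers, 1 was higher and 9 were lower in each genotype (median -3.06 in miR-9-1-deficient and -2.98 in wild-type mice). Of 11 B-lineage markers, 1 was higher and 7 lower in wild-type mice (median -1.76), and of 8 tested in miR-9-1-deficient mice 1 was higher and 2 lower (median 0.13). Macrophage and monocyte markers were higher in 0 cases, and lower in 2 of 10 in miR-9-1-deficient and 5 of 11 in wild-type mice. Marrow stroma markers were lower in 11 of 11 cases in wild-type OBs and in 5 of 11 in miR-9-1-deficient OBs. The part of these cells in the levels of the 42 genes was not tested.

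Between genotypes in MSCs, the mitosis set had a lower mean in miR-9-1-deficient mice E, F and G than in every wild-type library. Mouse H lay within the wild-type range, and the replication set was divided. All 22 mitosis genes had a log2 fold change below 0, with a median of -0.51, while 12 replication genes were below and 8 above 0, with a median of -0.16. Over all 14964 genes tested the median was -0.03 and 52.7% were below 0. Genes of 1 set share the same libraries and were chosen with earlier results known. Their number is therefore not a number of replicates. Few single genes passed: limma called 1 of the 42, Top2a, lower and 0 higher, where 1.06% of all genes were called, 0.501% higher and 0.561% lower. At an unadjusted p under 0.05, 7 mitosis genes and 1 replication gene were lower and 0 were higher (12.1% of all genes were lower by this measure). DESeq2 on the recovered reads called 3 lower, Top2a, Cdk1 and Kif11, and edgeR called Top2a alone. Over all genes DESeq2 called many more than limma did, by the counts in the last section. Its calls of members have to be read against that count and are no result about the set.

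Top2a, which encodes the topoisomerase that untangles sister chromosomes, fell. Top2a had 599.8, 733, 537 and 884 normalized counts in the miR-9-1-deficient MSC libraries of mice E, F, G and H, against 1055, 1317, 1446 and 1389 in the wild-type MSC libraries of mice A, B, C and D. Every miR-9-1-deficient library stood below every wild-type one. The log2 fold change was -0.93 ± 0.18 (standard error; 95% interval -1.32 to -0.54; 689 ± 154 against 1301 ± 173, SD, n = 4 each), with an adjusted p of 0.0381 by limma, 0.0441 by edgeR and 0.000628 by DESeq2. With 1 library left out the adjusted p ranged from 0.00854 to 0.117, and it was above 0.05 in 7 of the 8 cases, all but the one without mouse F. Cdk1 was the only other member whose groups did not overlap in this direction, which held for 6.10% of all genes. Cdk1 had 75.1, 111, 120.3 and 152 normalized counts in the miR-9-1-deficient MSC libraries of mice E, F, G and H, against 204, 207, 215 and 234 in the wild-type MSC libraries of mice A, B, C and D. The wild-type values lay close together and the miR-9-1-deficient ones spread below them, at a log2 fold change of -0.94 ± 0.25 (adjusted p = 0.0827 by limma, 0.0923 by edgeR and 0.0198 by DESeq2). Kif11, the kinesin that pushes spindle poles apart, was next. Kif11 had 187, 184, 213 and 339 normalized counts in the miR-9-1-deficient MSC libraries of mice E, F, G and H, against 391, 501, 464 and 301 in the wild-type MSC libraries of mice A, B, C and D. Mouse H of the first group stood above mouse D of the second, and the log2 fold change was -0.86 ± 0.25 (adjusted p = 0.0911 by limma and 0.0363 by DESeq2).

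In the replication set no gene passed. Mcm2, a subunit of the MCM helicase, had the smallest p. Mcm2 had 374, 449.8, 374 and 527 normalized counts in the miR-9-1-deficient MSC libraries of mice E, F, G and H, against 504, 633, 559 and 541 in the wild-type MSC libraries of mice A, B, C and D. The groups overlapped through mouse H, at a log2 fold change of -0.38 ± 0.16 (adjusted p = 0.195, limma). Cdt1, which loads the helicase, was the 1 member whose miR-9-1-deficient libraries all stood above the wild-type ones, which held for 6.30% of all genes. Cdt1 had 440.2, 418, 419.6 and 520.2 normalized counts in the miR-9-1-deficient MSC libraries of mice E, F, G and H, against 311, 361, 390.2 and 364 in the wild-type MSC libraries of mice A, B, C and D. The gap between the groups was small beside the spread within them, and the log2 fold change of 0.33 ± 0.16 had an adjusted p of 0.234 (limma). Its partner Cdc6 lay the other way at -0.47 ± 0.27 (adjusted p = 0.321, limma). Cdc6 had 131, 90.2, 139 and 164 normalized counts in the miR-9-1-deficient MSC libraries of mice E, F, G and H, against 140.2, 161, 234 and 188 in the wild-type MSC libraries of mice A, B, C and D. The library of mouse H reached into the wild-type range and the other 3 lay below it.

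**Figure D2:**
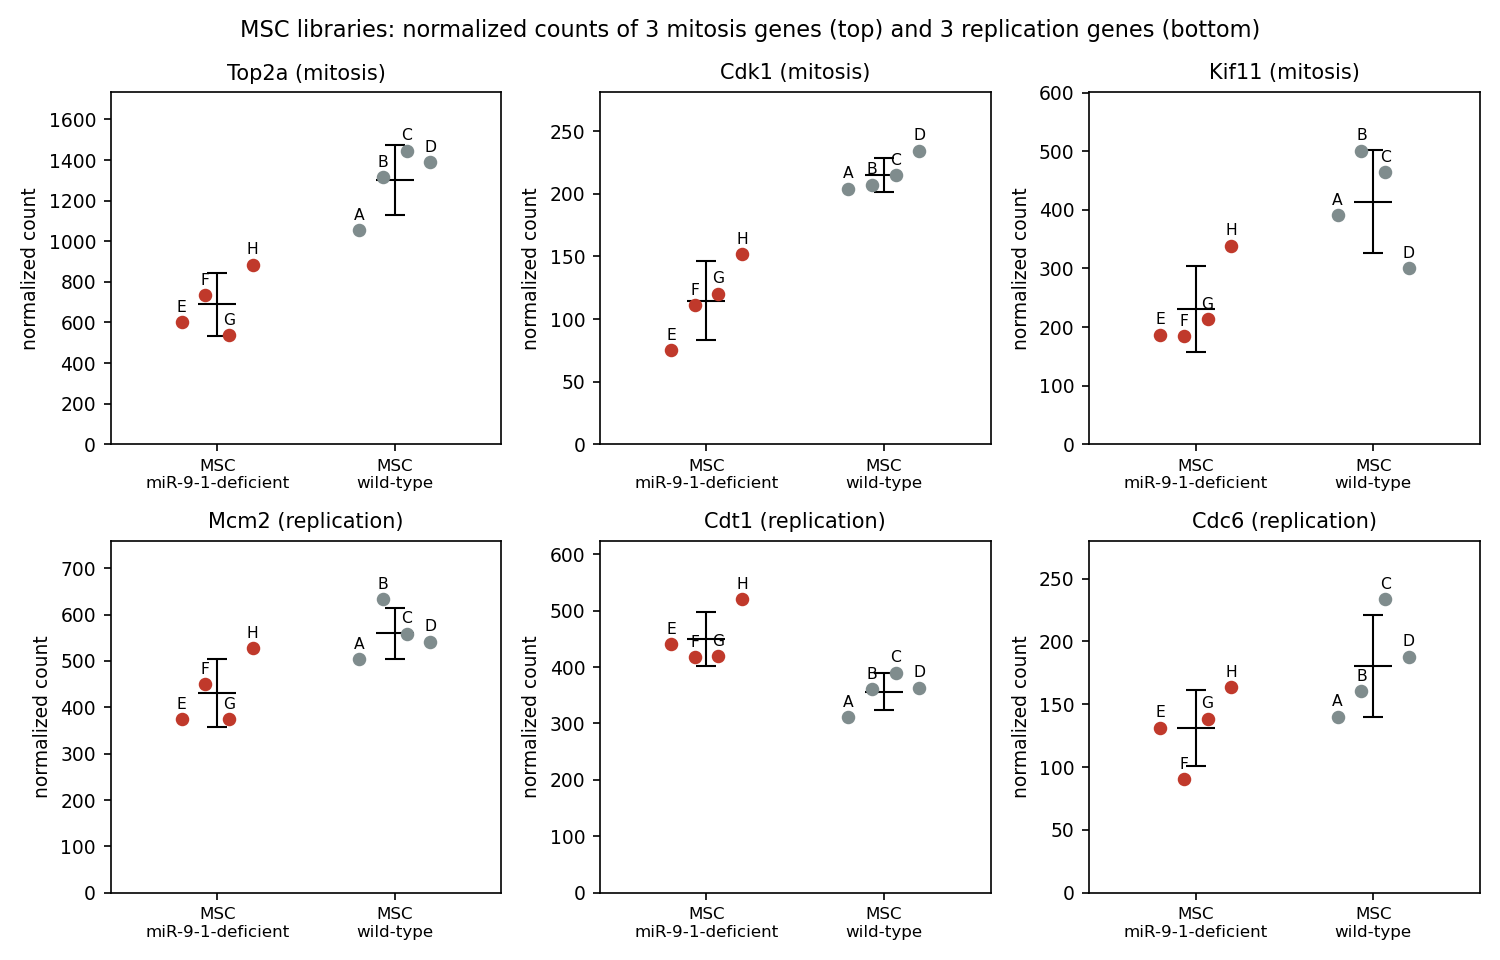
Normalized counts of Top2a, Cdk1 and Kif11 (top) and Mcm2, Cdt1 and Cdc6 (bottom) in the MSC libraries, miR-9-1-deficient mice E to H on the left and wild-type mice A to D on the right of each panel; bars are mean ± SD (n = 4). The groups are apart for Top2a, Cdk1 and Cdt1, Cdt1 in the opposite direction, and mouse H is the highest miR-9-1-deficient library in all 6 panels. Among the 42 genes, groups stood apart no more often than among all genes tested (6.10% lower, 6.30% higher).

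By role, the mitosis genes stood as follows in MSCs. Of the cyclins and their kinase, Ccnb2 (cyclin B2) was at -0.82 ± 0.31, Ccna2 (cyclin A2) at -0.52 ± 0.24 and Ccnb1 (cyclin B1) at -0.28 ± 0.42, beside Cdk1. The 4 spindle checkpoint genes ranged from -0.99 for Ttk to -0.07 for Mad2l1, with Bub1 at -0.57 ± 0.33 and Bub1b at -0.24 ± 0.34. Birc5, which encodes survivin of the chromosomal passenger complex, was at -0.76 ± 0.28, and the kinases Aurka, Aurkb and Plk1 lay between -0.48 and -0.45. The 6 kinesins and spindle or kinetochore proteins ran from Kif11 to Kif20a at -0.07 ± 0.25, with Kif23 at -0.63 ± 0.35, Tpx2 at -0.50 ± 0.26, Cenpf at -0.41 ± 0.22 and Cenpe at -0.29 ± 0.28. Cdc20 and Ube2c, which act with the anaphase-promoting complex, were at -0.36 ± 0.35 and -0.84 ± 0.42, and Mki67 was at -0.68 ± 0.25. Values are log2 fold changes ± standard error, and of those in this paragraph none passed by limma.

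The replication genes did not keep to 1 side within most roles. Among the 6 MCM subunits the values ran from Mcm2 to 0.27 ± 0.21 for Mcm7, with Mcm3 and Mcm5 below 0, Mcm4 at -0.0045 ± 0.17 and Mcm6 at 0.06 ± 0.16. The GINS subunits, which act as 1 complex, lay apart, with Gins1 at 0.62 ± 0.46 and Gins2 at -0.62 ± 0.52. Both are low in MSCs and spread widely between libraries. Gins1 had 153, 38.7, 107 and 102 normalized counts in the miR-9-1-deficient MSC libraries of mice E, F, G and H, against 41.6, 42.7, 74.3 and 85.7 in the wild-type MSC libraries of mice A, B, C and D. Gins2 had 19.95, 99.2, 106 and 52.6 normalized counts in the miR-9-1-deficient MSC libraries of mice E, F, G and H, against 124, 59.6, 116 and 75.1 in the wild-type MSC libraries of mice A, B, C and D. Gins1 was highest and Gins2 lowest in the same library, that of mouse E. Mcm10 was at 0.22 ± 0.26 and Cdc45 at -0.20 ± 0.33. At the fork, Pcna (0.07 ± 0.12), Pole (0.26 ± 0.27) and the primase Prim1 (0.09 ± 0.31) were above 0, and Fen1 (-0.19 ± 0.15) and Pola1 (-0.24 ± 0.24), the polymerase that extends primers, below. The 3 genes of nucleotide supply were all below 0, Rrm1 at -0.14 ± 0.16, Rrm2 at -0.32 ± 0.19 and Tyms at -0.33 ± 0.45.

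**Figure D3:**
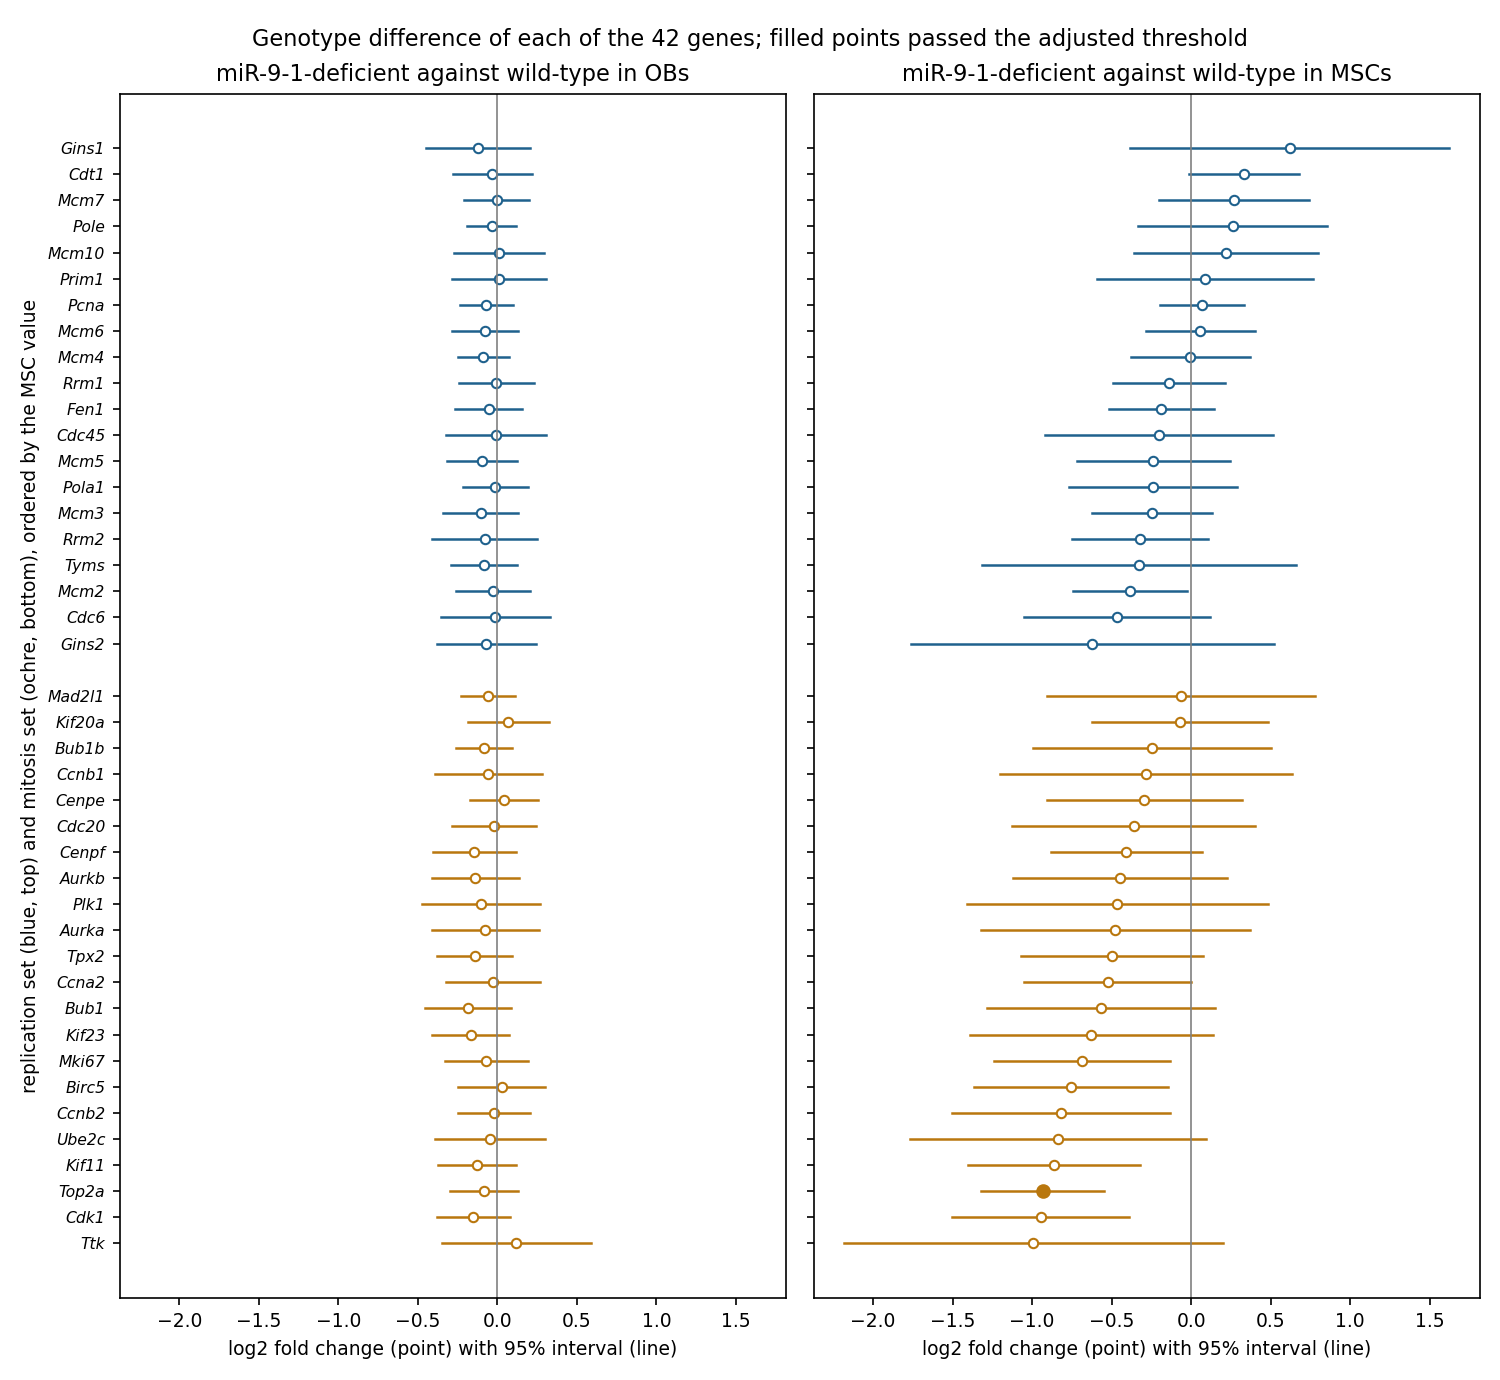
Log2 fold change of miR-9-1-deficient against wild-type libraries for each gene in OBs (left) and MSCs (right), with 95% intervals of the limma fit; replication genes are blue, mitosis genes ochre, both ordered by the MSC value, and a filled point passed the adjusted threshold. In MSCs all 22 mitosis genes lie left of 0 and only Top2a is filled; in OBs all 42 genes lie within 0.19 of 0.

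Per library, the shift of the mitosis set was uneven. Its mean log2 level was 6.99, 7.21, 7.29 and 8.03 in the miR-9-1-deficient MSC libraries of mice E, F, G and H, against 7.71, 8.12, 8.07 and 7.83 in the wild-type libraries of mice A, B, C and D. Mice E, F and G lay below all 4 wild-type libraries and mouse H lay within them. Mouse H had the highest miR-9-1-deficient value for 18 of 22 mitosis genes and for 13 of 20 replication genes, and the lowest for 0. The replication set had means of 8.09, 8.22, 8.35 and 8.57 in the miR-9-1-deficient libraries, against 8.24, 8.36, 8.50 and 8.43 in the wild-type ones, and its groups overlapped. Without mouse H the mitosis median was -0.72 and the replication median -0.24.

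The MSC libraries with low and with high Xist overlapped in mitosis level, mouse G with high Xist lying below mouse A with low Xist. The 3 libraries with low Xist had mitosis means of 6.99 and 7.21 in miR-9-1-deficient mice E and F, against 7.71 in wild-type mouse A. The 5 with high Xist had means of 7.29 and 8.03 in miR-9-1-deficient mice G and H, against 8.12, 8.07 and 7.83 in wild-type mice B, C and D. Within the low-Xist libraries the genotypes lay apart, with mouse A the only wild-type one. Within the high-Xist libraries mouse H overlapped the wild-type ones. With a term for this split in the fit, which was chosen after seeing the data, the mitosis median was -0.39 with 21 of 22 genes below 0, the replication median -0.10 with 11 of 20 below 0, and 0 members passed. Top2a then stood at -0.88 with an adjusted p of 0.0710 (limma).

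**Figure D4:**
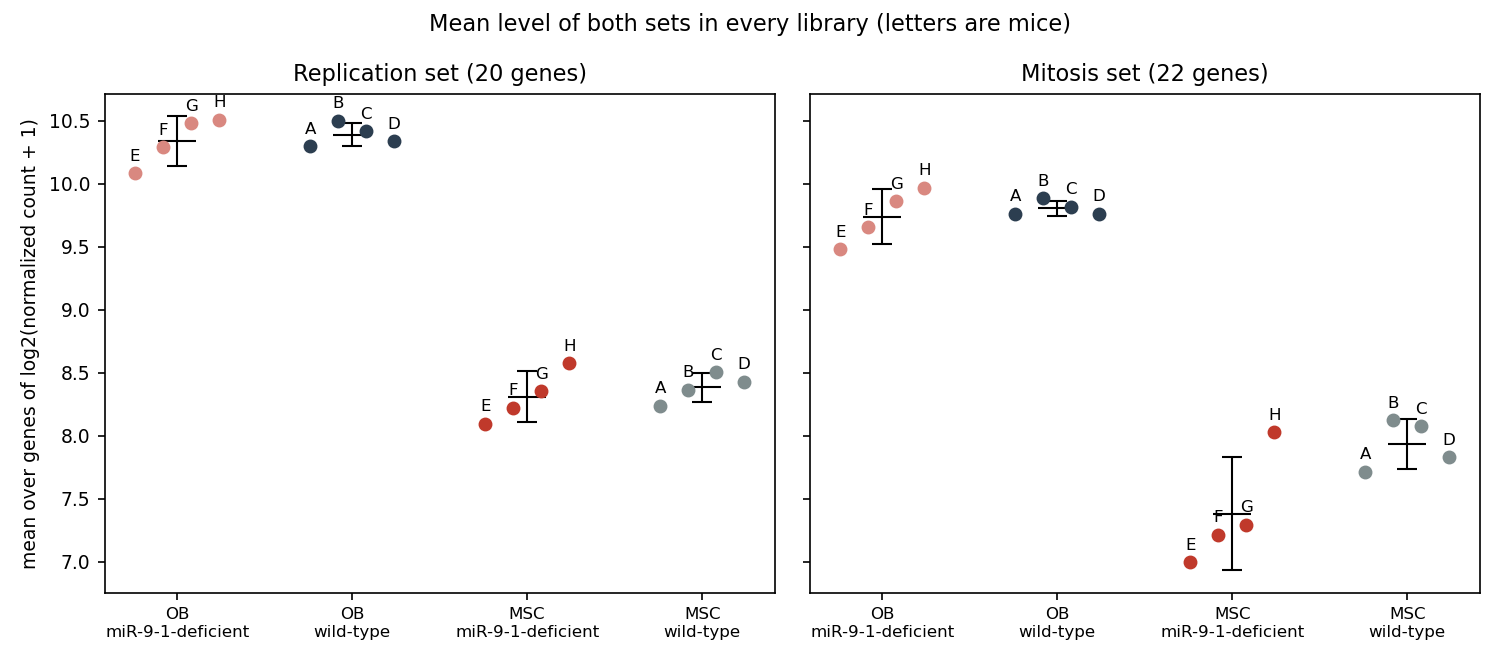
Mean over genes of log2(normalized count + 1) in each library for the replication set (left) and the mitosis set (right), by group, with letters for mice and bars for mean ± SD over 4 libraries. OB libraries lie above MSC libraries in both panels; in MSCs the mitosis panel shows mice E, F and G below all wild-type libraries and mouse H among them.

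The distance between the sets was wider in miR-9-1-deficient than in wild-type MSC libraries, and about equal between genotypes in OBs. The mitosis mean lay below the replication mean in every library, by a log2 difference of -0.93 ± 0.26 in miR-9-1-deficient MSCs and -0.45 ± 0.16 in wild-type MSCs (SD, n = 4 each). Mice E, F and G were at -1.10, -1.01 and -1.06, and mouse H, at -0.55, lay inside the wild-type range of -0.60 to -0.24. In OBs the same difference was -0.60 ± 0.04 in miR-9-1-deficient and -0.58 ± 0.03 in wild-type libraries. In share of all gene-assigned reads, the mitosis set took 0.0368% in miR-9-1-deficient MSCs against 0.0501% in wild-type MSCs, and the replication set 0.0595% against 0.0563%. The higher replication share rests on mouse H: it was 0.0526%, 0.0533%, 0.0570% and 0.0751% in mice E, F, G and H, against 0.0495%, 0.0609%, 0.0600% and 0.0546% in mice A, B, C and D. In OBs the shares were 0.262% against 0.263% for mitosis and 0.298% against 0.296% for replication. These are descriptions, without a test of the difference between sets.

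The 13 mitosis genes with a CHR in their promoter lay in MSCs at a median of -0.68 (log2 fold change), with a range of -0.99 to -0.24, and the 5 without one had a median of -0.29, with a range of -0.76 to -0.07. The ranges overlap and this was not tested. The 3 replication genes with a CHR, Mcm2, Cdc45 and Fen1, had a median of -0.20, against -0.14 for the 13 without one. The 7 replication genes with an E2F-type site had a median of -0.24, against -0.19 for the 9 without.

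Other genes of the cell cycle were examined in the same MSC comparison. Of 49 other mitosis genes, 0 were called by limma in either direction, 44 were below 0 and the median was -0.42. At an unadjusted p under 0.05, 14 of them were lower and 0 higher, and Kif4, a chromosome-bound kinesin, had the smallest p (-0.96 ± 0.26, adjusted p = 0.0839, limma). Of 48 other replication genes, 0 were called, 26 were below 0 and the median was -0.05, with 2 lower and 0 higher at an unadjusted p under 0.05. Dtl, which targets Cdt1 for destruction, had the smallest p (-0.60 ± 0.25, adjusted p = 0.191, limma). Of 10 G1 cyclins and G1/S kinases, 0 were called, 2 were lower and 1 higher at an unadjusted p under 0.05, and Ccnd2 (cyclin D2) had the smallest p (-0.79 ± 0.17, adjusted p = 0.0550, limma). Of 20 E2F, MYB and DREAM regulators, 0 were called, 2 were lower and 2 higher by the unadjusted p, and the median was -0.05, with the smallest p for Tfdp1, a partner of the E2F factors (-0.49 ± 0.14, adjusted p = 0.0950, limma). Of 7 CDK inhibitors, 0 were called, 1 was lower and 2 higher by the unadjusted p, and Cdkn1a, which encodes p21, had the smallest p (0.57 ± 0.16, adjusted p = 0.0870, limma). For these lists, the share of all genes higher by the unadjusted p is not given here.

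**Figure D5:**
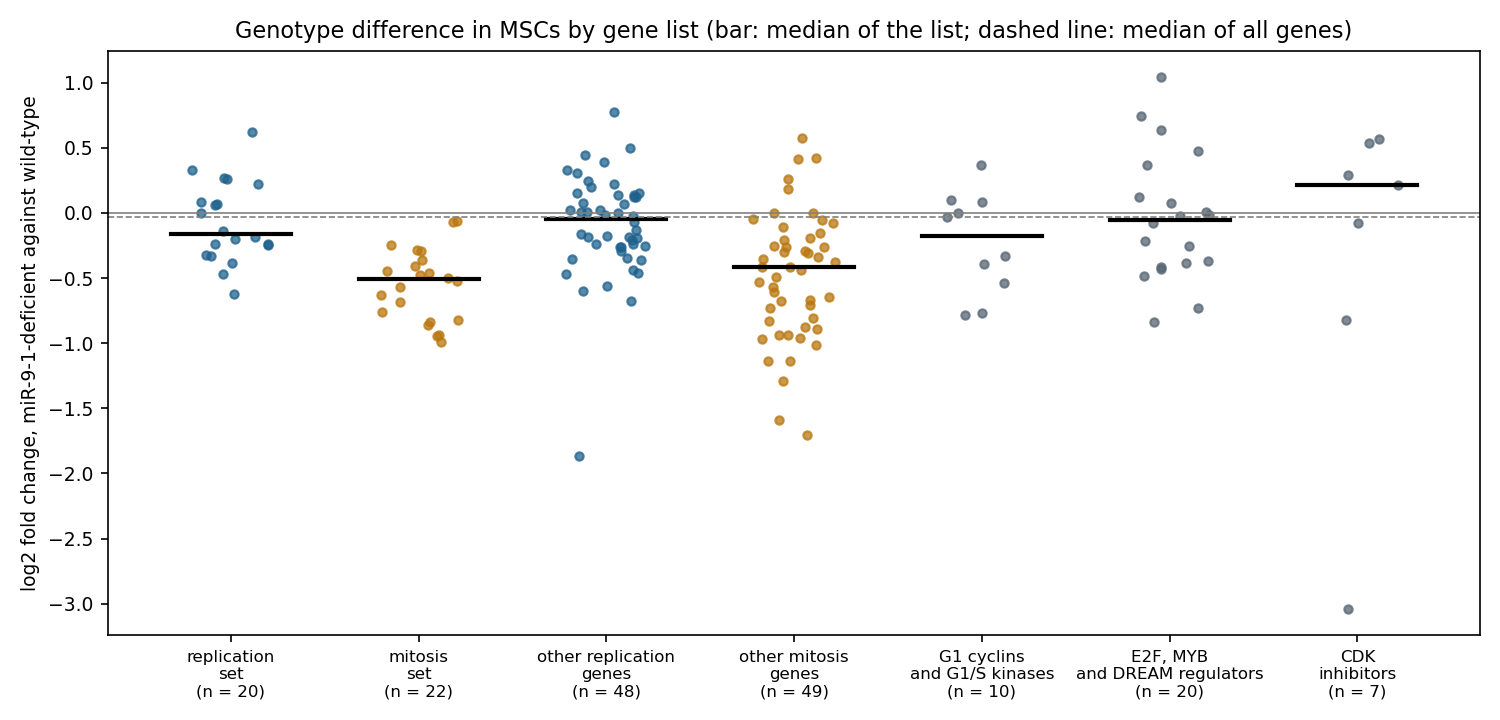
Log2 fold change of miR-9-1-deficient against wild-type MSC libraries for the genes of each list (points), with the median of the list (bar) and of all genes (dashed line, -0.03). Both mitosis lists sit below 0, with medians of -0.51 and -0.42, and both replication lists straddle it, with medians of -0.16 and -0.05.

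Markers of other cells also differed between the MSC groups. Of 11 B-lineage markers tested, 3 were called lower (Rag1, Vpreb3 and Cd79b) and 0 higher, and 9 were below and 2 above 0. The mean log2 level over all 13 listed was 3.55 to 4.65 in miR-9-1-deficient MSCs and 5.61 to 6.78 in wild-type MSCs, without overlap. Their summed level did overlap, at 2119 to 3654 normalized counts in miR-9-1-deficient MSCs and 2963 to 3479 in wild-type MSCs. Vpreb1, a defining marker of B progenitors, was at 0 in all miR-9-1-deficient MSC libraries. Of 12 osteoblast markers 2 were called lower (Bglap and Bglap2) and 0 higher. Of 10 granulocyte progenitor markers 0 were called, 9 were below 0 and the median was -1.08, with summed levels of 2080 to 6473 normalized counts in miR-9-1-deficient MSCs and 3327 to 12549 in wild-type MSCs. Of 14 blood progenitor markers 0 were called (median -0.16), and of 18 erythroid markers 0 were called (median 0.07). The erythroid mean log2 level was highest in the miR-9-1-deficient library of mouse H, at 8.87, the library with the highest mitosis mean of the 4 miR-9-1-deficient ones, against 6.82, 7.24 and 7.93 in mice E, F and G and 6.997 to 8.08 in the wild-type libraries. Mouse H was also highest of the 4 in granulocyte progenitor, mature neutrophil, macrophage and monocyte, blood progenitor, endothelial and skeletal muscle markers. It was lowest in marrow stroma and B-lineage markers, and mouse G was highest in megakaryocyte and in T and NK markers. Of 8 skeletal muscle markers tested 0 were called, 7 were above 0 and 4 were higher at an unadjusted p under 0.05. The share of all genes higher by this measure is not given here. The summed level of all 11 listed muscle markers was 533, 657, 1567 and 5662 normalized counts in the miR-9-1-deficient libraries of mice E, F, G and H, against 402 to 588 in wild-type MSCs. Mice F, G and H lay above every wild-type library. The part of these cells in the mitosis result was not tested.

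Between genotypes in OBs the 42 genes lay close together. Limma called 0 of the 42 (0.0281% of 14229 genes, 4 in all), and so did edgeR and DESeq2, and 0 had an unadjusted p under 0.05 (8.95% of all genes did). The medians were -0.05 in the replication set and -0.07 in the mitosis set, against -0.02 over all genes, and the extremes were -0.19 for Bub1 and 0.12 for Ttk. Kif23, a kinesin of the central spindle, had the smallest p in the mitosis set. Kif23 had 627, 634, 803 and 849 normalized counts in the miR-9-1-deficient OB libraries of mice E to H, against 830.4, 760.2, 832 and 823 in the wild-type OB libraries of mice A to D. Mice E and F lay below the wild-type range, G within it and H above it, and the log2 fold change was -0.17 ± 0.11 (95% interval -0.41 to 0.07; adjusted p = 0.661, limma). Bub1 had 465, 403, 527 and 598 normalized counts in the miR-9-1-deficient OB libraries of mice E to H, against 544, 615, 524 and 565 in the wild-type OB libraries of mice A to D. Mice E and F again lay below the wild-type range, F lowest, and G and H within it (-0.19 ± 0.12, 95% interval -0.46 to 0.08). In the replication set Mcm4 and Mcm3, both MCM subunits, had the smallest p. Mcm4 had 2021, 2275, 2447 and 2347 normalized counts in the miR-9-1-deficient OB libraries of mice E to H, against 2225, 2580.4, 2429.6 and 2413 in the wild-type OB libraries of mice A to D. Mcm3 had 2581, 3300.2, 3709.9 and 3552 normalized counts in the miR-9-1-deficient OB libraries of mice E to H, against 3326, 3676, 3482 and 3534 in the wild-type OB libraries of mice A to D. In both genes mouse E was lowest of the 8 libraries and the groups overlapped. The log2 fold changes were -0.09 ± 0.07 (95% interval -0.25 to 0.07) and -0.11 ± 0.10 (-0.34 to 0.13). For Top2a the interval in OBs was -0.30 to 0.13.

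Within the miR-9-1-deficient OB libraries the genes moved as a block by mouse. Mouse E had the lowest value for 19 of 20 replication genes and 19 of 22 mitosis genes, and mice G and H held the highest value for all 42. The mitosis means were 9.48, 9.65, 9.86 and 9.97 in mice E, F, G and H, against 9.76, 9.89, 9.82 and 9.76 in wild-type mice A, B, C and D. The replication means were 10.08, 10.29, 10.48 and 10.51, against 10.30, 10.50, 10.42 and 10.34. In the same libraries marrow stroma markers ran the other way, with mean log2 levels of 10.34, 10.65, 8.91 and 7.70 in mice E, F, G and H, against 7.99 to 8.90 in wild-type OBs. Erythroid markers followed the same order as the 42 genes, at 9.48, 9.71, 9.92 and 9.94 in mice E, F, G and H, against 9.32, 9.48 and 9.41 in wild-type mice A, C and D and a value above all of these in wild-type mouse B. So did blood progenitor markers, at 10.51, 10.61, 10.75 and 10.85, against 10.70 to 10.87. Xist was lower in mice E and F than in G and H. The part of any of these in the order was not tested.

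The difference of genotype effects, the log2 fold change in OBs minus that in MSCs, was tested over all 16 libraries. Limma called 0 of the 42 genes (0.0129% of 15556 genes, 2 in all). All 22 mitosis genes had a difference above 0, with a median of 0.39, and the 20 replication genes had a median of 0.13 with 11 above 0, against 0.04 over all genes, of which 53.5% were above 0. At an unadjusted p under 0.05, 5 mitosis genes were higher and 0 replication genes were called in either direction (5.51% of all genes were higher). Top2a had the smallest p, at 0.85 ± 0.21 (95% interval 0.41 to 1.28), with an adjusted p of 0.223 by limma, 0.242 by edgeR and 0.0287 by DESeq2, which called 1 member. Here too DESeq2 called many more of all genes than limma did, by the counts in the last section. Behind the Top2a difference are 3491, 4019, 4496 and 4575 normalized counts in miR-9-1-deficient OBs against 4126, 4788, 4612 and 4001 in wild-type OBs, a pair of groups that overlap, beside the MSC values above, which do not. Cdk1 followed at 0.79 ± 0.24 (adjusted p = 0.291, limma). Cdk1 had 693, 789, 979 and 899 normalized counts in the miR-9-1-deficient OB libraries of mice E to H, against 933, 925, 892 and 949 in the wild-type OB libraries of mice A to D. The OB groups of Cdk1 overlap through mice G and H. In the replication set Cdt1 (-0.36 ± 0.17, adjusted p = 0.438) and Mcm2 (0.36 ± 0.18, adjusted p = 0.468, limma) had the smallest p, with opposite signs. Cdt1 had 948, 1169.8, 1366 and 1262 normalized counts in the miR-9-1-deficient OB libraries of mice E to H, against 1064, 1274, 1252 and 1226 in the wild-type OB libraries of mice A to D. Mcm2 had 2223, 2498, 2928 and 3065 normalized counts in the miR-9-1-deficient OB libraries of mice E to H, against 2486, 2958, 2774 and 2641 in the wild-type OB libraries of mice A to D. Both genes overlap between genotypes in OBs. That Top2a passed in MSCs and not in OBs therefore does not show by limma that its effect differs between them.

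Spread between replicates limits these comparisons, and it was not equal. The median SD on the log2 scale over the mitosis genes was 0.228 in miR-9-1-deficient OBs and 0.119 in wild-type OBs, and 0.551 in miR-9-1-deficient MSCs and 0.357 in wild-type MSCs. Over the replication genes it was 0.212 and 0.0939 in OBs and 0.338 and 0.280 in MSCs, miR-9-1-deficient before wild-type. Over all genes it was 0.184 and 0.134 in OBs and 0.338 and 0.256 in MSCs, in the same order. Mitosis genes were thus more variable than the typical gene in both MSC groups, while replication genes had the spread of the typical gene in miR-9-1-deficient MSCs. The steadiest replication gene there was Fen1 (0.0649) and the most variable Gins2 (1.09). In wild-type OBs, Pole and Cdk1 varied least in their sets, at 0.0310 and 0.0377.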

How the data were processed

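Poly(A) RNA of sorted OBs and MSCs was sequenced with a NEBNext Ultra kit that is not stated to keep strand, per the labels' protocols. The deposited values are normalized counts per gene, a signal scaled by the authors with DESeq2 1.24.0 on build mm10, per the submitters' processing notes, and no source used here names the aligner or counter. Whole reads were recovered from the steps of these values (tolerance 0.01 reads) and used for depth, floors and count-based alternatives. The main test was limma 3.58.1 (R 4.3.3) with an intensity trend on log2(normalized count + 1), over genes that reached 10 in 4 or more libraries of the comparison, with Benjamini-Hochberg adjustment over all genes and a threshold of 0.05; fold changes on this scale understate those of low genes. edgeR 4.0.16 and DESeq2 1.42.0 on recovered reads, a pseudocount of 5, no filter, quantile normalization, a block for the number in the title and leaving libraries out were alternatives. The fits were tested on simulated data.

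The members and lists were chosen with earlier results of these data known. Values in every library are given for members that passed between genotypes, for the 2 per set with the smallest p otherwise, and for the 3 per set with the largest change between cell types; of other lists, passing genes with the largest change or the 1 with the smallest p. Other members' per-library values, Mybl2 and Rbl2 were chosen after their values were seen. P-values measure the spread between these libraries. The 95% intervals of fold changes come from the limma fit and rest on the spread between libraries, while floors for a count of 0 (3 reads) cover counting error only. Promoters (build GRCm38.p6) and gene positions are from RefSeq. Exon lengths behind the values per kb are unions of all annotated exons of a gene in GENCODE vM21.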

Additional observations from a re-analysis of the deposited data

Results flagged for a closer look

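Of 176 groups of 4 libraries examined (42 genes and the mean of each set in each group), 6 held a library whose distance from the nearest other exceeded Dixon's 95% critical value as a share of the group's range, where chance gives about 1 in 20 groups. Of these, 3 were in the miR-9-1-deficient MSC library of mouse H, which was above the others: Cdc45 was at 193 normalized counts, against 85.1 to 99.8 in the other 3 libraries. Ccna2 was at 522 there, against 244 to 268. Birc5 was at 238 there, against 107 to 121. In wild-type OBs the library of mouse B was high for Rrm2, at 1902 against 1356 to 1441, and low for Kif23, at 760.2 against 823 to 832. In wild-type MSCs the library of mouse C was high for Ccna2, at 482 against 423 to 429.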

How the results depend on the processing

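All 42 genes kept their call between OBs and MSCs in both genotypes under every alternative run. OB and MSC libraries share only a number in their titles: their deviations from the group means correlated at 0.0241 to 0.285, and 7 of 8 correlated best with their own number, mouse C better with another (0.0530) than with its own (0.0241). With this number as a replicate block, 8978 genes were called in miR-9-1-deficient and 10216 in wild-type mice, and the difference of genotype effects called 3 genes and 0 members; the block changed no other call. Quantile normalization gave a wild-type replication median of 2.19. Between genotypes in MSCs, 159 genes and 1 member were called; DESeq2 called 1196 and 3, the fit without the MSC libraries of mice G and H 0 and 0, and the fit with the Xist term 51 and 0. Leaving out 1 library gave 0 (without mouse B) to 2261 genes (without mouse F) and 0 to 2 members. Top2a was lost without G and H (adjusted p = 0.256, limma) and Cdk1 passed without F (adjusted p = 0.0437, limma). In OBs 16 genes were called with quantile normalization, 194 by DESeq2, and 3 to 108 (without mouse H) with 1 library left out. For the difference of effects, a pseudocount of 5 called 0 genes, no filter 4, edgeR 1 and DESeq2 127 with 1 member; leaving out 1 library gave 0 to 571 genes and 0 to 1 member, the highest of both without the MSC library of F, where Top2a passed (adjusted p = 0.0360, limma). Its mitosis median was 0.71 without the MSC libraries of G and H and 0.31 to 0.67 with 1 library left out (0.67 without the MSC library of H), and its replication median -0.060 (without the MSC library of E) to 0.23. The cause was not tested. MSC libraries hold fewer reads of these genes, down to 9 for Ttk, which limits what could be detected there.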
